A study of Mus musculus with 20 samples.

Results

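Soleus muscles of H222P mice were compared between 200 and 80 days of age, with 5 arrays at each age, which are 10 of the 20 arrays of the series. These H222P mice carry the p.H222P missense change of *Lmna* on both copies from the germline, in all cells, so no promoter or Cre restricts the mutation. The young H222P group had an age of 80 days and the old H222P group an age of 200 days. All were untreated males of the 129S2/SvPasCrl strain, as were the WT mice of the same 2 ages, whose 10 arrays served as the background of ordinary ageing. Each array has its own number in the titles, used here to name the mice (young H222P 549, 94, 95, 96 and 97, and old H222P 139, 601, 609, 6121 and 6122). No source says more about how the animals were related, or whether 6121 and 6122 are 2 animals or 2 samples of 1. They were counted as 2, and their average in place of both gave 133 called genes in place of 116. P-values rest on the spread between arrays within groups, over all 20 arrays of the series unless a fit of fewer is named. The members of the comparison are all 22180 genes that have a probe set with exactly 1 symbol on GeneChip Mouse Gene 2.0 ST arrays, each read from its brightest probe set. Every level below is a deposited log2 signal, so a difference of 1.0 is a doubling, and levels are compared between arrays but not between genes.

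Lamins A and C, the products of *Lmna*, form with the B-type lamins the lamina under the inner nuclear membrane, which carries mechanical load between the cytoskeleton and chromatin. Mutations in this gene cause Emery-Dreifuss muscular dystrophy and dilated cardiomyopathy in people, and p.H222P mice develop a muscular dystrophy and a cardiomyopathy with age. The soleus is a postural calf muscle rich in slow oxidative fibers and capillaries, and it ends in the Achilles tendon. Damaged fibers regenerate from satellite cells, which fuse and pass through a stage with embryonic and cardiac forms of the sarcomere proteins.

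The labelled tissue was checked against 10 muscle markers, among them *Acta1*, *Ckm*, *Des* and *Ttn*, which lay at or above the 95.9th percentile of all genes. Their mean level ran from 11.04 to 11.15 in the young and from 10.78 to 11.11 in the old H222P arrays. *Lmna* itself, whose missense change an expression array does not read, had levels of 7.10, 6.80, 6.97, 6.74 and 6.64 in the young and 7.30, 7.51, 7.57, 7.37 and 7.19 in the old H222P mice. All old arrays lay above all young ones, and the rise was 0.54 ± 0.12 (SE, adjusted p = 0.00836).

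Of the 22180 genes, 1329 (5.99%) passed an adjusted p of 0.05 between the 2 ages in H222P soleus, 885 of them (3.99%) higher and 444 (2.0%) lower at 200 days. With the additional limit of 2-fold, 116 genes (0.523%) were called, 92 (0.415%) higher and 24 (0.108%) lower. The same contrast in WT soleus called 0 genes (0.00%) in limma, where 1854 genes (8.36%) had an unadjusted p under 0.05, against 4343 (19.6%) in H222P soleus. Under the adjusted p alone, the WT count was 16 with dim probe sets left out and 9 with array weights. It was 8 without WT mouse 107 and at most 2 with any other alternative. The change with age differed between the genotypes for 194 genes (0.875%), with the H222P change above the WT change for 115 (0.518%) and below it for 79 (0.356%). That count was 114 without young mouse 94, 118 without young mouse 96, and 123, 125 and 127 without WT mice 691, 692 and 24. Of the 116 genes called at 2-fold, 62 were among the 194. A fit of the 10 H222P arrays alone, with fewer arrays to estimate the spread, gave 112 genes at 2-fold and 746 in place of 1329 without that limit. In 106 of the 116, the 5 young and the 5 old arrays did not overlap, which was so for 1477 genes (6.66%) over the whole table. The 116 were called on these same arrays, so their separation follows largely from the selection and is no added evidence. The same holds for the means over called genes below. The median absolute change over all genes was 0.12 in H222P and 0.10 in WT. The changes of the 2 genotypes, which share no array, correlated across the 22180 genes with r = 0.14 (Spearman rho = 0.14), a description in which genes are not independent replicates. Averaged over the 92 risen genes, the young arrays lay at 5.63 for mouse 549 and between 5.08 and 5.28 for the other 4, and the old arrays lay between 6.41 and 6.86. Over these genes mouse 549 was the young array nearest to the old ones. Averaged over the 24 fallen genes, the young arrays lay between 7.03 (mouse 97) and 7.28 and the old ones between 5.63 and 6.13, and mouse 549, at 7.27, was not the nearest. Counts of list members given below stand beside these shares of all genes, 3.99% higher and 2.0% lower at the adjusted p.

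**Figure D1:**
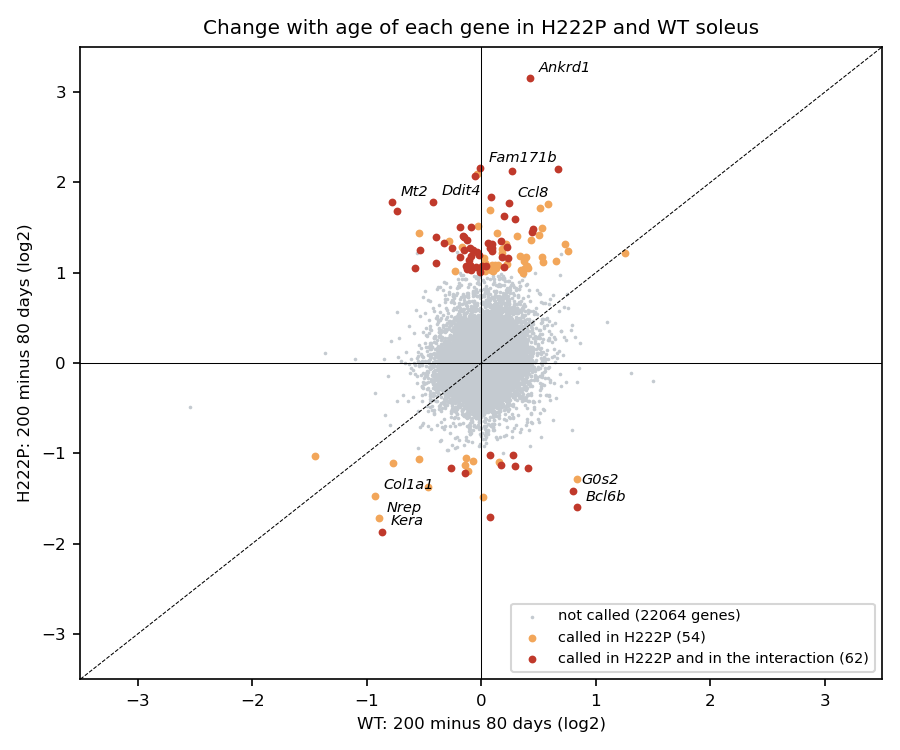
Change with age in WT soleus (x axis, log2) against change with age in H222P soleus (y axis, log2), with 1 point per gene for all 22180 genes and the genes called in H222P soleus in orange, or red where the interaction passed as well. The 92 risen and 24 fallen genes spread along the H222P axis, up to 3.16 for *Ankrd1*, while their WT changes stay near 0 for most.

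The largest rise was that of *Ankrd1*, a muscle ankyrin repeat protein of the sarcomeric I-band and the nucleus that responds to stretch and injury. Its levels were 6.98, 5.49, 6.44, 5.37 and 6.26 in the young and 9.50, 10.11, 9.09, 8.60 and 9.01 in the old H222P mice. All old arrays lay above all young ones, and the change was 3.16 ± 0.35, or 8.91-fold (adjusted p = 2.37e-05), against 0.43 ± 0.35 in WT. Its promoter is shown because *Ankrd1* is a known target of the TEAD transcription factors, of which *Tead1* moved the other way (below). In the RefSeq sequence (GRCm38.p6, chr19:36119947-36120069, minus strand, from the 250 bases before a start of the gene), the capitals mark the TEAD motif CATTCC or its complement.
Ankrd1: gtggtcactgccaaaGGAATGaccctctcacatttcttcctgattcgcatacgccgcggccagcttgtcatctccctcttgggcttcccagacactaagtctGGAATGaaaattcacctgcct
Over both strands of the 250 bases before a start, 12.6% of 32851 annotated starts held this motif at least 1 time and 1.02% at least 2 times, as here. A match of letters is not a bound site.

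Other members of the stretch-response list moved in both directions, with 3 of 28 measured members higher (5 without young mouse 95) and 3 lower (median 0.12, against -0.01 over all genes). *Ahnak2*, a large scaffold protein of the costamere, rose by 1.32 ± 0.19 (adjusted p = 0.000274), from 5.81 to 6.85 in the young to 7.45 to 7.77 in the old H222P mice. *Pdlim5*, a PDZ and LIM protein of the Z-disc, rose by 0.64 ± 0.09 (adjusted p = 0.000178). *Tead1*, the DNA-binding partner of YAP, fell from 8.90, 9.03, 9.0, 9.0 and 9.04 to 8.35, 8.17, 8.33, 8.70 and 8.70, with no overlap (-0.55 ± 0.10, adjusted p = 0.00225). *Fhl3*, a LIM protein of the actin cytoskeleton, fell by 0.78 ± 0.10 (adjusted p = 6.56e-05), and its change also differed from that in WT (-0.69 ± 0.14, adjusted p = 0.0208). *Ccn2*, a matricellular target of YAP and TGF-beta, ran from 6.94 to 8.08 in the young and from 7.89 to 8.37 in the old mice and did not pass (adjusted p = 0.0871). Without young mouse 549, which had the highest young level, *Ccn2* passed.

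Behind *Ankrd1* came *Fam171b*, *Tnfrsf23*, *Klk1* and *Ccdc110*, each more than 4-fold higher in the old mice. *Fam171b*, a membrane protein, had levels of 5.94, 5.0, 4.85, 4.24 and 4.95 in the young and 7.40, 7.10, 7.32, 6.72 and 7.23 in the old H222P mice. The WT arrays of both ages stayed between 3.40 and 4.22, below every H222P array. *Ccdc110*, a coiled-coil protein, rose from between 3.90 and 5.17 to between 5.84 and 7.69 (2.07 ± 0.26, adjusted p = 6.76e-05), with WT arrays between 3.30 and 3.85. *Klk1*, tissue kallikrein, which releases kinins, was at 4.10 in young mouse 549 and at 2.52 to 2.90 in the other young mice, and reached 4.62 to 6.02 in the old ones. *Tnfrsf23*, a mouse decoy receptor for the death ligand TRAIL, ran from 4.68 to 6.15 in the young and from 7.24 to 7.62 in the old mice. Of the 27 measured members of the TNF receptor family, 5 were higher and 0 lower at 200 days (median -0.07), and 3 were higher without young mouse 96 or without old mouse 609. Further risers were *Psca*, a lipid-anchored protein of the LY6 family (2.84-fold, adjusted p = 0.000823), *Gdf11*, a TGF-beta family ligand related to myostatin (2.80-fold, adjusted p = 2.2e-05), and *Armh4* (3.09-fold, adjusted p = 7.77e-05). *Fam107a*, an actin-associated stress protein, rose by 1.69 ± 0.27 in H222P soleus while its WT change was -0.73 ± 0.27, and the 2 changes differed by 2.42 ± 0.39 (adjusted p = 0.00473).

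**Figure D2:**
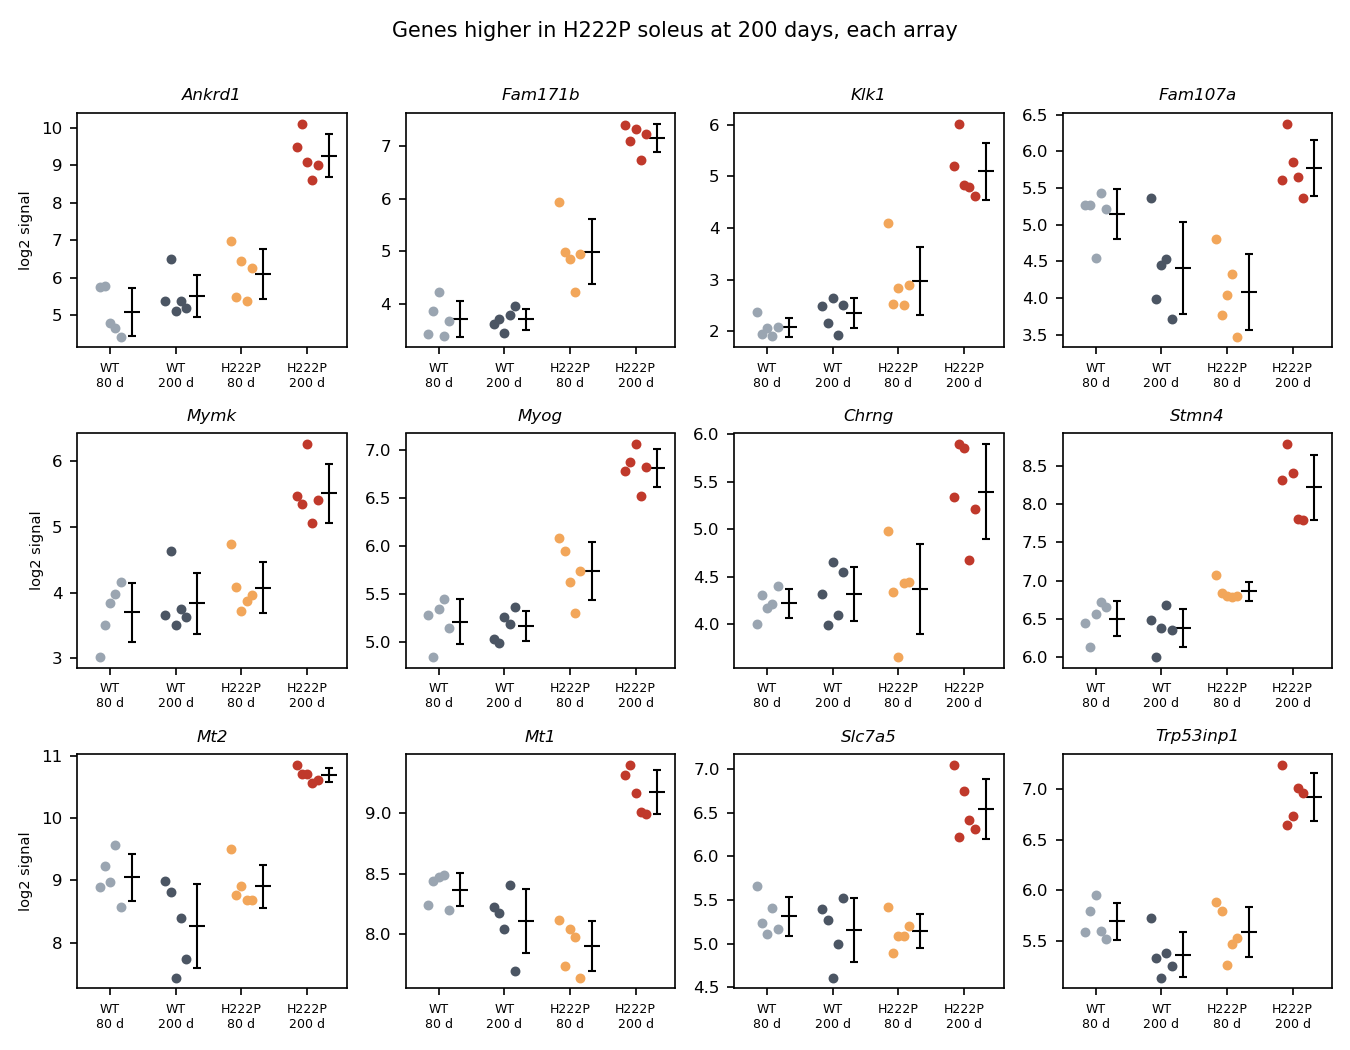
Level of selected risen genes in each array (y axis, log2 signal) for the 4 groups of genotype and age, with 1 point per array and bars for mean ± SD of 5 arrays. In each panel the old H222P arrays have the highest mean, such as 8.60 to 10.11 for *Ankrd1* against 5.37 to 6.98 in the young H222P arrays.

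Embryonic, neonatal and cardiac sarcomere genes were higher at 200 days for 6 of 16 measured members (median 0.17). *Myl4*, the embryonic and atrial essential light chain, had levels of 6.69, 5.14, 4.99, 4.86 and 5.25 in the young and 7.38, 7.03, 7.18, 7.10 and 7.40 in the old H222P mice. Young mouse 549 stood apart from the other 4 young mice, still below all old ones. In WT soleus of both ages *Myl4* remained between 4.89 and 5.21, and the H222P change exceeded the WT change by 1.75 ± 0.32 (adjusted p = 0.0122). *Myh3*, the embryonic myosin heavy chain, rose 3.29-fold and *Myh8*, the perinatal form, 2.84-fold (adjusted p = 4.86e-05 and 0.000411). *Tnnt2*, cardiac troponin T, which developing skeletal muscle also makes, rose 3.03-fold, from 7.50 to 8.45 to 9.09 to 9.89. Cardiac alpha-actin *Actc1* ran from 8.16 to 9.21 in the young and from 9.42 to 9.96 in the old mice, so the groups lay next to each other without overlap (0.86 ± 0.17, adjusted p = 0.00445). *Nppb*, the brain natriuretic peptide of strained heart muscle, rose 1.96-fold from 3.28 to 3.87 to 4.17 to 4.80 (adjusted p = 9.62e-05), and not in WT (-0.01 ± 0.13).

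Of 35 myogenic regulators and satellite cell genes, 4 were higher and 2 lower, with a median of -0.05 and 21 of them below 0. The 2 lower ones were *Notch3* and *Hey1*, a receptor and a target of Notch signaling (1.45-fold and 1.33-fold lower, adjusted p = 0.0152 and 0.0124). *Myog*, the transcription factor of terminal myogenic differentiation, had levels of 6.08, 5.95, 5.63, 5.30 and 5.74 in the young and 6.78, 6.87, 7.06, 6.51 and 6.82 in the old mice, against 4.84 to 5.45 in all WT arrays. That is a change of 1.07 ± 0.14 (adjusted p = 0.000105), which exceeded the WT change by 1.11 ± 0.20 (adjusted p = 0.0112). *Mymk*, the membrane protein that drives myoblast fusion, rose 2.71-fold (adjusted p = 0.0015), and old mouse 609 was highest at 6.26. *Itga7*, the laminin receptor of fibers, rose by 0.43 ± 0.09 (adjusted p = 0.00562). *Mcm6*, a subunit of the replicative helicase, was at 4.64 to 5.52 in the young mice and at 6.48 to 6.85 in 4 old mice, while old mouse 139 lay at 5.23 within the young range (1.25 ± 0.26, adjusted p = 0.00656). The cell cycle list as a whole had 4 of 33 members higher and 1 lower (2 lower without old mouse 139 or 6121), and its median change was -0.02.

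Of 26 genes of the neuromuscular junction and of denervation, 5 were higher and 0 lower (median 0.16), and 8 were higher without young mouse 549. *Chrng*, the fetal gamma subunit of the acetylcholine receptor that innervated fibers replace, had levels of 4.98, 4.34, 3.66, 4.43 and 4.45 in the young and 5.33, 5.89, 5.85, 4.68 and 5.22 in the old H222P mice. Old mouse 6121 lay below young mouse 549, the groups thus overlapped, and the change was 1.02 ± 0.22 (adjusted p = 0.00716, 0.051 in a fit of the 10 H222P arrays alone). *Chrnb1*, the beta subunit of the fetal and adult receptor, rose without overlap from 6.62 to 7.21 to 7.73 to 8.13 (adjusted p = 0.00018). The delta subunit gene *Chrnd* ran from 4.51 to 5.27 and from 5.15 to 5.59 and did not pass (adjusted p = 0.0628), although it did without young mouse 96. *Ncam1*, the adhesion molecule of immature and denervated fibers, rose 2.26-fold (adjusted p = 0.000139), *Runx1*, a transcription factor induced by denervation, 1.80-fold (adjusted p = 0.000614), and *Kcnn3*, a small-conductance potassium channel that appears in denervated muscle, 2.0-fold (adjusted p = 0.00393). The promoter of *Chrng* is printed to show the E-boxes (CANNTG, read the same on both strands), the letters that myogenic factors such as myogenin recognise (GRCm38.p6, chr1:87205641-87205756, plus strand, from the 250 bases before a start).
Chrng: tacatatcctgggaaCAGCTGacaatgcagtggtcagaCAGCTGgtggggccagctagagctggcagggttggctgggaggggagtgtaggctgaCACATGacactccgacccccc
It holds 3 matches in capitals. In 250 bases before a start, 66.2% of all starts had at least 1 and 12.21% at least 3.

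Imprinted growth genes and the BEX and TCEAL family of the X chromosome also rose in part. *Peg3*, a paternally expressed zinc finger gene active in muscle stem cells, had levels of 7.21, 6.31, 6.14, 6.50 and 6.50 in the young and 7.84, 8.01, 7.75, 7.55 and 7.47 in the old H222P mice. It lay between 5.33 and 6.03 in WT, and the H222P change exceeded the WT change by 1.21 ± 0.23 (adjusted p = 0.0184). *Igf2*, the fetal growth factor, rose 1.85-fold (adjusted p = 0.000571), *Peg10* 1.48-fold (adjusted p = 0.0117) and *Igf2r*, the receptor that clears IGF2, 1.40-fold (adjusted p = 0.00419). *Meg3*, a maternally expressed long noncoding RNA, was 1.33-fold lower (adjusted p = 0.0186), with a WT change of like size (-0.42 ± 0.10 in H222P and -0.39 ± 0.10 in WT). These were 4 of 22 measured imprinted genes higher and 1 lower (3 lower without old mouse 6122, 2 without WT mouse 50). In the BEX and TCEAL family, 5 of 12 were higher and 0 lower, with a median of 0.43. *Bex1*, known in mice for a role in muscle regeneration, rose from 8.74, 8.15, 7.92, 7.89 and 8.19 to 9.51, 9.68, 9.37, 9.15 and 9.30, and every old array was above every young one. Its change was 1.23 ± 0.14 (adjusted p = 3.77e-05), and it exceeded that in WT by 1.26 ± 0.20 (adjusted p = 0.00506). *Tceal7* rose 2.40-fold, *Bex3* 2.12-fold, *Tceal5* 1.78-fold and *Tceal9* 1.51-fold (adjusted p = 0.00228, 0.00176, 0.000414 and 0.0149). Members of this family resemble each other in sequence, and probes may read more than 1 of them.

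Several genes of microtubules, intermediate filaments and junctions rose that are better known from neurons, epithelia or heart than from adult skeletal muscle. Their groups were put together after the values were seen, and the counts are a description. *Uchl1*, a deubiquitinase abundant in neurons, had levels of 8.02, 7.49, 7.33, 6.86 and 7.93 in the young and 9.46, 9.34, 9.44, 9.02 and 9.17 in the old H222P mice, with WT arrays between 4.95 and 6.61. *Stmn4*, a stathmin that binds free tubulin, was nearly flat among the young at 6.79 to 7.08 and reached 7.80 to 8.79 in the old (1.36 ± 0.17, adjusted p = 5.47e-05). The other 3 measured stathmins did not pass. *Kif5c*, a heavy chain of the plus-end motor kinesin-1, rose 2.55-fold, from 2.95 to 3.55 to 4.34 to 4.83, and *Kif3a*, a kinesin-2 motor of cilia and transport, rose 1.98-fold. Among 38 kinesins, 7 were higher and 0 lower, and 4 were higher without young mouse 94, without old mouse 139, or in the fit of the H222P arrays alone. *Tuba8*, an alpha-tubulin of muscle, fell 1.41-fold (adjusted p = 0.00436).

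*Dsp*, desmoplakin, which ties intermediate filaments to desmosomes, was at 4.94, 3.63, 5.13, 4.92 and 5.02 in the young and at 7.17, 6.73, 6.78, 5.74 and 5.71 in the old mice. Old mice 139, 601 and 609 were highest, and the rise was 3.25-fold (adjusted p = 0.00276). *Pkp2*, the plakophilin of heart desmosomes, rose 1.86-fold (adjusted p = 0.0015), and these were the 2 of 15 desmosome genes that passed. *Krt18*, a keratin of simple epithelia, stayed between 4.38 and 4.73 in the young and reached 4.87 to 7.0 in the old mice, highest in mouse 601 (2.33-fold, adjusted p = 0.00351). Of 25 clade B serpins, which inhibit serine proteases inside cells, 3 were higher and 0 lower, namely *Serpinb1a*, which protects cells from neutrophil elastase (2.67-fold), *Serpinb8* (2.10-fold) and *Serpinb7* (2.06-fold). *Serpinb1a* has close copies in the mouse genome, so its signal may not come from it alone.

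Metallothioneins, small cysteine-rich proteins that hold zinc and copper and rise with metal load, glucocorticoids and oxidative stress, were among the clearest risers. *Mt2* had levels of 9.50, 8.76, 8.91, 8.68 and 8.68 in the young and 10.86, 10.71, 10.71, 10.56 and 10.61 in the old H222P mice. *Mt1* had 8.12, 7.74, 8.04, 7.98 and 7.64 in the young and 9.31, 9.40, 9.17, 9.01 and 8.99 in the old. Neither gene's groups overlapped. The changes were 1.78 ± 0.24 for *Mt2* (adjusted p = 0.000151) and 1.27 ± 0.13 for *Mt1* (adjusted p = 1.05e-05). In WT soleus both changes had the opposite sign, at -0.78 ± 0.24 and -0.26 ± 0.13, and the differences between genotypes were 2.56 ± 0.34 (adjusted p = 0.00101) and 1.53 ± 0.18 (adjusted p = 0.000371). The letters TGCNCNC, a loose form of the core of the metal response element to which the zinc sensor MTF1 binds, were searched before their starts. Not every match need be such an element, and binding was not tested. Matches are in capitals on either strand (GRCm38.p6, chr8:94172380-94172589 for *Mt2* and chr8:94179051-94179087 for *Mt1*, both on the plus strand).
Mt2: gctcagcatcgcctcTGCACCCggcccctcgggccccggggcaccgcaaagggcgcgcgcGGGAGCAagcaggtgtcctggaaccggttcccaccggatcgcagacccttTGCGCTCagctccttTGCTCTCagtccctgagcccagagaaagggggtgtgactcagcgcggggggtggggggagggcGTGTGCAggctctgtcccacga
Mt1: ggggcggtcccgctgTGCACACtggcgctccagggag
*Mt2* had 5 matches, as many as or more than all but 0.34% of starts, and *Mt1* had 1, as 44.4% of starts have at least 1. Letters past the annotated start were not searched. Of 27 genes of metallothioneins, zinc transport and NRF2 targets, 7 were higher and 1 lower (median 0.14). Without old mouse 601 or old mouse 609, 4 were higher, and the 1 lower call ended when any one of the young mice or of old mice 139, 601 and 609 was left out. The 7 included *Gclc*, the rate-limiting enzyme of glutathione synthesis (1.67-fold, adjusted p = 0.00164), and the zinc exporter *Slc30a4* (1.49-fold, adjusted p = 0.00638).

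The integrated stress response, in which ATF4 raises amino acid uptake and stress genes, had 7 of 38 measured genes higher (median 0.08). *Slc7a5*, the light chain of the large neutral amino acid transporter, had levels of 5.42, 4.90, 5.09, 5.09 and 5.21 in the young and 7.05, 6.22, 6.75, 6.42 and 6.31 in the old mice, with no overlap. It rose by 1.41 ± 0.17 (adjusted p = 5.49e-05) and by 1.56 ± 0.24 more than in WT (adjusted p = 0.00432), and its heavy chain *Slc3a2* rose 1.47-fold (adjusted p = 0.00833). *Slc38a2*, a glutamine transporter, rose 1.61-fold (adjusted p = 0.0133), with a WT change of -0.45 ± 0.16. *Ddit4*, an inhibitor of mTORC1 that glucocorticoids and hypoxia raise, went from 5.44, 5.10, 4.08, 4.66 and 4.59 to 7.0, 6.33, 6.23, 6.63 and 6.61, or 3.45-fold (adjusted p = 0.00225). *Atf3*, a stress-induced transcription factor, was at 5.89 to 6.67 in the young, at 6.70 and 6.90 in old mice 139 and 609 and at 7.75 to 8.14 in the other 3. Its adjusted p was 0.0169, and 0.0557 without old mouse 601. The phosphatase subunit *Ppp1r15a*, which ends this response, did not pass (0.44 ± 0.14, adjusted p = 0.0614) and did without young mouse 549.

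Among 26 targets of p53, 7 were higher and 0 lower at 200 days (median 0.21), and the count was 7 in the fit of the H222P arrays alone as well. *Trp53inp1*, which promotes p53 activity and autophagy, had levels of 5.88, 5.80, 5.27, 5.47 and 5.53 in the young and 7.24, 6.65, 6.73, 7.02 and 6.96 in the old H222P mice. It rose by 1.33 ± 0.14 (adjusted p = 1.48e-05), fell short of the threshold in WT with a change of -0.33 ± 0.14, and the 2 changes differed by 1.66 ± 0.19 (adjusted p = 0.000371). *Cdkn1a*, the cell cycle inhibitor p21, was at 8.61 to 9.32 in the young and at 9.47 to 10.12 in the old mice (1.84-fold, adjusted p = 0.00453). Levels in WT were 7.12 to 8.16, below all H222P arrays. *Ccnd1*, cyclin D1, rose 1.87-fold, *Eda2r*, the receptor of ectodysplasin A2, 1.53-fold, and *Sesn1*, a stress-induced inhibitor of mTORC1, 1.49-fold (adjusted p = 0.000606, 0.00596 and 0.0054). The related *Sesn3*, a FoxO target, rose 1.75-fold (adjusted p = 0.000358).

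Heat shock and folding genes were higher for 6 of 27 (median 0.09). *Hspa1b*, the inducible HSP70, was at 8.08, 6.88, 7.67, 7.16 and 7.40 in the young and at 8.94, 9.95, 8.82, 8.51 and 8.45 in the old mice, highest in mouse 601. It rose 2.82-fold (adjusted p = 0.00225), and its near-identical copy *Hspa1a* 1.91-fold (adjusted p = 0.00448), and probes may not tell the pair apart. *Hspb8*, a small chaperone of chaperone-assisted autophagy at the Z-disc, rose 1.75-fold, from 8.83 to 9.25 to 9.52 to 10.03 (adjusted p = 9.39e-05), and by 0.81 ± 0.15 more than in WT (adjusted p = 0.0129). *Hspb1* rose 1.45-fold (adjusted p = 0.00652), and *Dnajb9*, a chaperone of the endoplasmic reticulum, 1.51-fold (adjusted p = 0.0137, 0.0628 in the fit of the H222P arrays alone). Of 40 genes of atrophy ligases, FoxO and autophagy, 6 were higher (2 without young mouse 94) and 1 lower (2 without old mouse 6121 or 6122). The ubiquitin ligase *Cblb* was 1.35-fold higher (adjusted p = 0.00824) and *Asb2*, a ligase subunit that sets muscle mass, 1.58-fold lower (adjusted p = 0.0136), and neither passed in the fit of the H222P arrays alone (adjusted p = 0.0568 and 0.0586).

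Matrix and tendon genes were among the fallers, and several had WT changes below 0 that did not pass. *Kera*, keratocan, a proteoglycan that spaces collagen fibrils, had levels of 8.28, 8.42, 8.05, 7.88 and 8.29 in the young and 6.70, 6.19, 6.03, 6.35 and 6.31 in the old H222P mice. The groups lay far apart, and the gene was 3.65-fold lower (adjusted p = 1.8e-06), with a WT change of -0.87 ± 0.17. *Chad*, chondroadherin of cartilage and tendon matrix, had 8.54, 7.93, 8.17, 8.10 and 7.48 in the young and 6.47, 5.58, 7.03, 6.20 and 6.40 in the old mice. Here the WT change was 0.08 ± 0.24, and the H222P change lay below it (-1.78 ± 0.34, adjusted p = 0.0173). *Fmod*, fibromodulin, was 2.08-fold lower (adjusted p = 0.000905). *Aspn*, asporin, went the other way in the same proteoglycan list (1.65-fold higher, adjusted p = 0.00264).

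Collagen genes were lower for 6 of 33 and higher for 0, or 1 without young mouse 549 (median -0.25, and -0.09 in WT). *Col1a1* went from 8.44, 8.50, 7.66, 8.22 and 8.0 to 6.03, 6.59, 6.86, 6.89 and 7.11, which is 2.77-fold lower (adjusted p = 0.00021), with a change of -0.93 ± 0.21 in WT. *Col1a2*, the partner chain, was 2.16-fold lower (adjusted p = 0.00316), *Col11a1* 1.63-fold and *Col6a1* 1.62-fold (adjusted p = 0.00246 and 0.00902). *Col3a1*, the chain of reticular fibers and of scars, ran from 7.32 to 8.20 in the young and from 6.77 to 7.86 in the old mice and did not pass (-0.44 ± 0.26, adjusted p = 0.397). In none of these collagens did the change differ from that in WT (interaction adjusted p from 0.51 for *Col1a1* to 0.96 for *Col3a1*). *Sparc*, a collagen-binding matrix protein, was 1.47-fold lower (adjusted p = 0.00337), *Pcolce*, the enhancer of procollagen C-proteinase, 1.49-fold (adjusted p = 0.00884), and *Thbs2*, thrombospondin 2, 1.64-fold (adjusted p = 0.0041). *P3h2*, a prolyl 3-hydroxylase, rose 2.17-fold from 6.87 to 7.48 to 7.97 to 8.50 (adjusted p = 0.000138). *Nrep*, a neuronal regeneration-related protein of fibroblasts and injured neurons, was 3.29-fold lower in H222P soleus, with a WT change of -0.90 ± 0.24.

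Over 14 markers of tendon and cartilage cells, 8 were lower at 200 days, with a median of -0.64 in H222P and -0.08 in WT. Their mean level was 6.25 to 6.38 in the young and 5.65 to 5.86 in the old H222P arrays, against 5.82 to 6.49 and 5.85 to 6.01 in young and old WT. *Tnmd*, tenomodulin, the membrane glycoprotein that marks tendon cells, was at 7.24 to 7.73 in the young and at 6.24 to 6.78 in the old mice (1.93-fold lower, adjusted p = 0.00413). A further marker, *Sox9*, was higher (0.73, adjusted p = 0.0313). It no longer passed when young mouse 549, 94 or 95 or old mouse 139, 609 or 6122 was left out. *Sox9* is not counted among the named genes below. *Wif1*, a secreted inhibitor of WNT ligands, was 1.51-fold lower (adjusted p = 0.00596). The amount of tendon in each dissected muscle is not given, and its part in these differences was not tested. *Thy1*, a surface marker of fibroblasts, was 1.64-fold lower (adjusted p = 0.0049), and the mean of 11 fibroblast markers was 6.37 to 6.56 in the young and 6.27 to 6.45 in the old mice. From bulk muscle RNA, fewer cells of a type and less RNA per cell cannot be told apart.

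Matrix proteases and TGF-beta signals moved both ways. *Adamts20* and *Mmp23*, 2 metalloproteases, rose 1.90-fold and 1.79-fold (adjusted p = 0.000243 and 0.0017). *Adamts8*, an antiangiogenic metalloprotease, was 2.03-fold lower (adjusted p = 0.0174, 0.0538 without young mouse 95), and its WT change was larger, at -1.45 ± 0.25. *Tgfb3* rose 1.45-fold (adjusted p = 0.009), *Smad3*, a transducer of TGF-beta, was 1.56-fold lower (adjusted p = 0.00437) with old mouse 601 lowest at 5.73, and *Bmp5* was 1.53-fold lower (adjusted p = 0.0134). In the fit of the H222P arrays alone, *Tgfb3* and *Smad3* did not pass (adjusted p = 0.0545 and 0.0508).

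**Figure D3:**
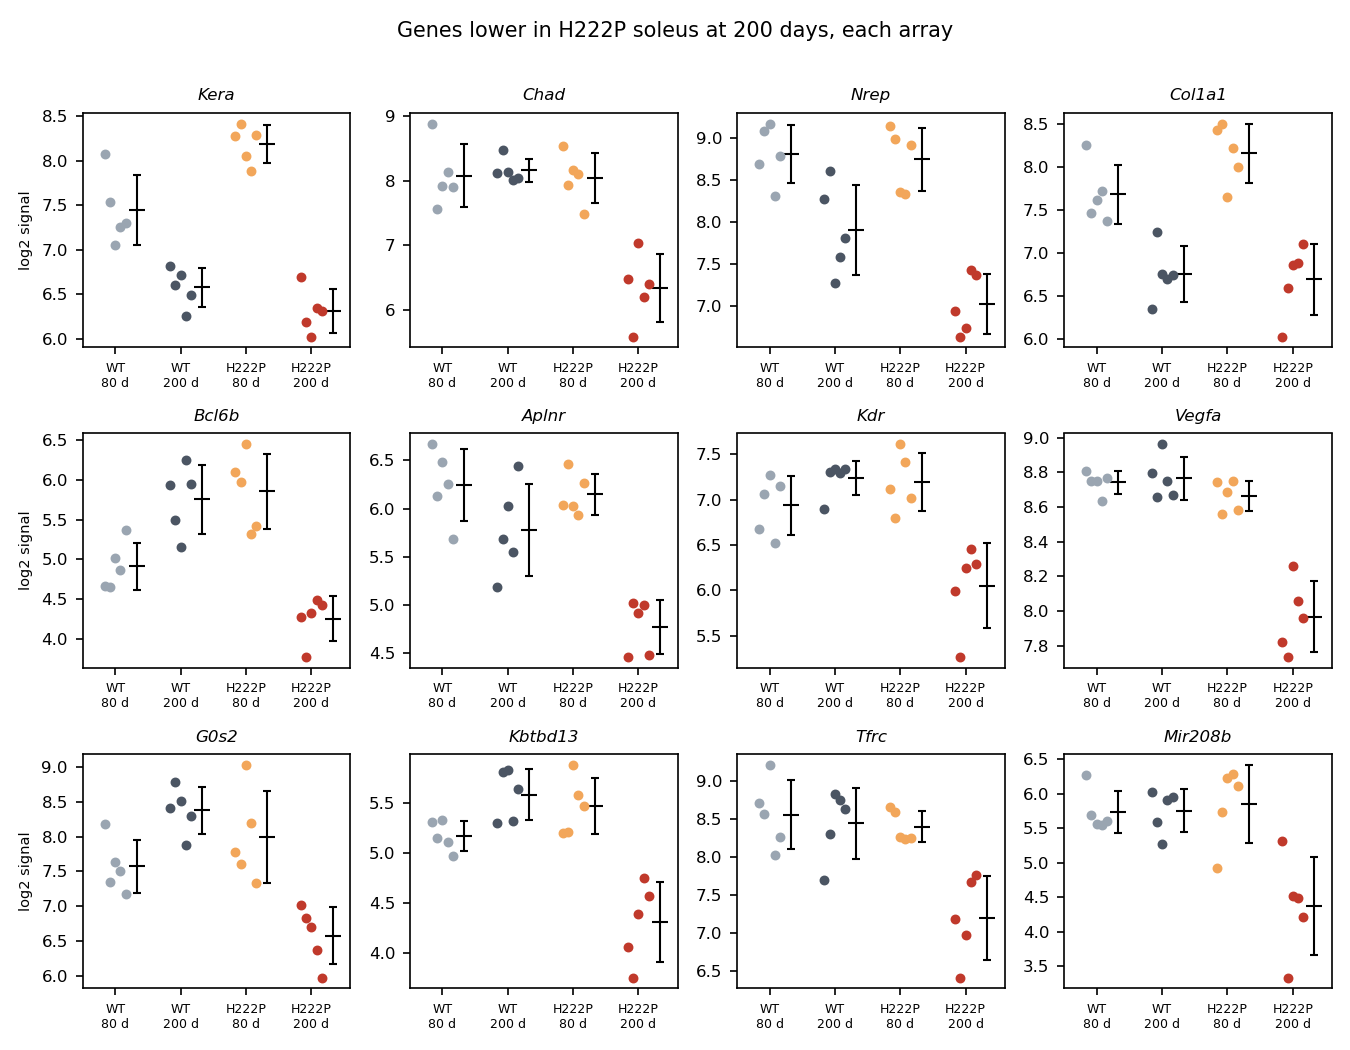
Level of selected fallen genes in each array (y axis, log2 signal) for the 4 groups of genotype and age, with 1 point per array and bars for mean ± SD of 5 arrays. The old H222P arrays have the lowest mean in each panel, as for *Kera* (6.03 to 6.70 against 7.88 to 8.42 in the young H222P arrays), and for *Col1a1* the old WT arrays lie low as well, at 6.35 to 7.25.

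Vascular genes fell in the old H222P mice. Of 23 endothelial markers, 14 were lower and 0 higher, against 2.0% of all genes lower, with a median of -0.46 in H222P and -0.10 in WT. Leaving out 1 H222P array at a time gave 12 to 14, and the fit of the H222P arrays alone gave 9. The mean level of these markers was 6.25 to 6.50 in the young and 5.54 to 5.92 in the old H222P arrays, and 6.38 to 6.57 over all WT arrays. *Bcl6b*, an endothelial transcriptional repressor, had levels of 6.09, 5.98, 6.45, 5.32 and 5.42 in the young and 4.28, 3.77, 4.32, 4.49 and 4.42 in the old H222P mice, a 3.02-fold fall (adjusted p = 0.000157). Its WT change was 0.84 ± 0.22, and the changes differed by -2.43 ± 0.31 (adjusted p = 0.000802). *Kdr*, the main receptor for VEGF, had 7.12, 6.80, 7.61, 7.42 and 7.02 in the young and 6.0, 5.27, 6.25, 6.46 and 6.29 in the old mice, and mouse 601 was lowest. It was 2.20-fold lower (adjusted p = 0.00143), and its change lay below that in WT (-1.44 ± 0.28, adjusted p = 0.0185).

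*Aplnr*, the apelin receptor of capillaries, was 2.59-fold lower (adjusted p = 0.000357), at 5.93 to 6.46 in the young and 4.46 to 5.02 in the old mice. *Egfl7*, a matrix protein that endothelial cells secrete, was 1.89-fold lower (adjusted p = 5.38e-05), and its change lay below that in WT (-0.95 ± 0.16, adjusted p = 0.00659). Its 5 young arrays lay between 6.43 and 6.85 and its 5 old ones between 5.59 and 6.0. *Emcn*, endomucin of capillaries and veins, was 1.67-fold lower (adjusted p = 0.00116), *Myct1* 2.19-fold (adjusted p = 0.00234) and *Sox18*, a transcription factor of vessels and lymphatics, 1.80-fold (adjusted p = 0.0118, 0.0527 in the fit of the H222P arrays alone). Pericyte and smooth muscle markers were lower for 5 of 12 (median -0.27). *Kcnj8* and *Abcc9*, the subunits of the vascular ATP-sensitive potassium channel, were 1.79-fold and 1.52-fold lower (adjusted p = 0.00209 and 0.0015). *Rgs5*, a regulator of G-protein signals in pericytes, was at 10.75 to 11.04 in the young mice and at or below 10.57 in the old ones (adjusted p = 0.00169), and *Notch3* was 1.45-fold lower (adjusted p = 0.0152).

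The ligand *Vegfa*, which fibers release to maintain capillaries, had levels of 8.74, 8.56, 8.68, 8.75 and 8.58 in the young and 7.82, 7.73, 8.26, 8.06 and 7.96 in the old H222P mice. It fell by 0.70 ± 0.09 on the log2 scale (adjusted p = 0.000145) without overlap, and its change lay below that in WT (-0.72 ± 0.13, adjusted p = 0.0148). *Vegfb* was 1.44-fold lower (adjusted p = 0.00358), and *Gucy1b1*, the beta subunit of the nitric oxide receptor, 1.54-fold (adjusted p = 0.00158). *Vegfa* is also a target of hypoxia-inducible factors, and in that list, drawn up after the values were seen, 6 of 20 genes were lower and 0 higher, with a median of 0.00. These included *Ndufa4l2*, which damps respiration in hypoxia (1.84-fold lower, adjusted p = 8.06e-05), *Bhlhe40*, a repressor also of the clock (1.77-fold lower, adjusted p = 0.000543), and *Pfkfb3*, which sets the glycolytic activator fructose 2,6-bisphosphate (1.57-fold lower, adjusted p = 0.0132). The changes of *Ndufa4l2* and *Bhlhe40* lay below those in WT (adjusted p = 0.00791 and 0.00626). The hypoxia list leaves out *Ddit4*, which hypoxia also raises and which rose 3.45-fold. Its count of 0 higher thus depends on the choice of members. *Cav1*, *Cav2* and *Cavin2*, which shape caveolae, were 1.46-fold, 1.44-fold and 1.43-fold lower (adjusted p = 0.00402, 0.00204 and 0.00266), 3 of 7 measured caveolins and cavins.

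**Figure D4:**
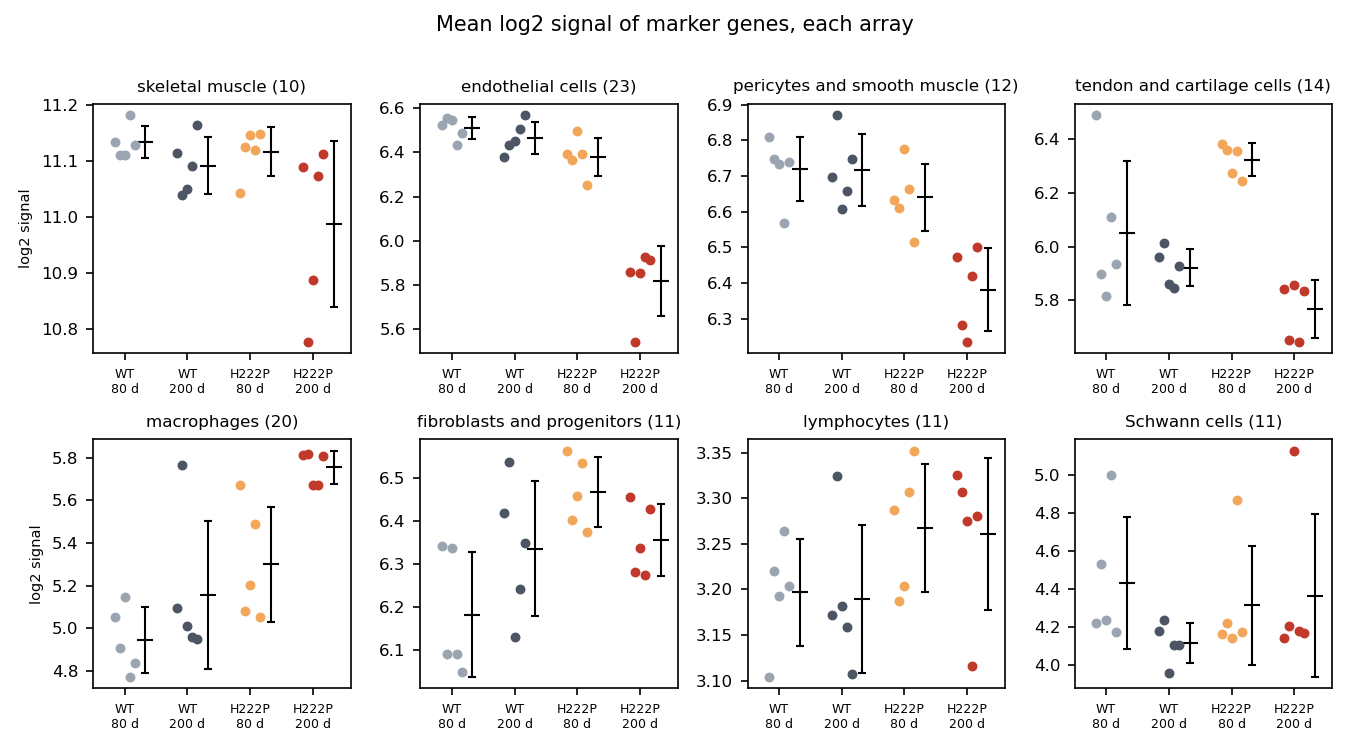
Mean level of the markers of each cell type (y axis, log2 signal) in each array of the 4 groups, with 1 point per array and bars for mean ± SD of 5 arrays. Endothelial markers separate the old H222P arrays (5.54 to 5.92) from the young ones (6.25 to 6.50), while lymphocyte markers overlap (3.12 to 3.33 against 3.19 to 3.35).

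Immune genes rose in part. Of 20 macrophage markers, 4 were higher and 0 lower, 19 had a change above 0, and the median was 0.40 in H222P and 0.21 in WT. Their mean level was 5.05 to 5.67 in the young and 5.67 to 5.82 in the old H222P arrays, so that the ranges met. *Cd163*, the hemoglobin scavenger receptor of resident macrophages, was at 4.48 to 5.04 in the young and at 5.32 to 5.76 in the old mice (1.71-fold higher, adjusted p = 0.0015). *Lgals3*, galectin-3 of phagocytes, rose 1.91-fold (adjusted p = 0.0111) and *Gpnmb*, a glycoprotein of lipid-laden macrophages, 1.72-fold (adjusted p = 0.00895), both with overlap. *Ccl8*, a chemokine for monocytes, was at 4.10, 2.75, 3.22, 3.22 and 3.22 in the young and at 5.12, 5.35, 4.90, 4.92 and 5.07 in the old H222P mice. It was 3.42-fold higher (adjusted p = 3.55e-05), by 1.53 ± 0.29 more than in WT (adjusted p = 0.018). *Ccl17* rose 1.57-fold (adjusted p = 0.00186). In the list of chemokines, cytokines and their receptors, 3 of 43 measured members were higher and 1 lower (median 0.07). The count of higher ones was 6 without young mouse 549 and 5 without old mouse 6121. The lower one was *Cxcl12* (-0.77, adjusted p = 0.0224), a call that ended without young mouse 94 or 96 or old mouse 139. *Cxcl12* is not counted among the named genes below.

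The class II histocompatibility genes *H2-Ab1*, *H2-Eb1* and *H2-Aa*, which present antigen, rose 2.38-fold, 1.84-fold and 1.91-fold (adjusted p = 0.00107, 0.000379 and 0.00632). *H2-Ab1* had levels of 7.74, 6.47, 6.98, 7.21 and 6.81 in the young and 8.07, 8.93, 8.32, 8.10 and 8.03 in the old mice, while the WT arrays lay between 6.42 and 7.22. *H2-Aa* overlapped between the ages and did not pass in the fit of the H222P arrays alone (adjusted p = 0.0546). These genes are members of a multigene family. Of 28 interferon response genes 0 passed (3 of them did without young mouse 549), with a median of 0.06. *Gbp10*, a guanylate-binding protein with near-identical copies, rose 2.73-fold, from 6.67 to 7.41 to 8.32 to 8.85 (adjusted p = 2.37e-05). Lymphocyte markers passed for 0 of 11, with a median of -0.01.

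Genes of membrane excitability were lower for 5 of 29 ion channels and pumps and higher for 1. *Clcn1*, the chloride channel that stabilises the resting fiber and whose loss causes myotonia, had levels of 8.30, 8.44, 8.30, 8.30 and 8.23 in the young and 7.34, 6.99, 7.46, 7.78 and 7.91 in the old H222P mice. The young arrays were nearly alike, all old ones lay lower, and the fall was 1.76-fold (adjusted p = 0.000454). *Kcnj2*, an inward rectifier potassium channel, was 1.39-fold lower (adjusted p = 0.00401), and its change lay below that in WT (-0.70 ± 0.13, adjusted p = 0.0158). *Aqp1*, a water channel of capillaries, was 1.53-fold lower (adjusted p = 0.00605). Of 46 genes of calcium handling, 5 were higher and 5 lower (median -0.10), and 1 was higher without young mouse 94 or old mouse 139. Among the lower ones, *Cacna2d1*, a subunit of the voltage sensor complex, was 1.44-fold lower (adjusted p = 0.00476) and *Mrln*, myoregulin, a peptide inhibitor of the SERCA calcium pump, 1.63-fold (adjusted p = 0.00934). Another SERCA inhibitor of muscle, *Sln*, sarcolipin, rose from 9.89 to 10.38 to 10.74 to 11.24 (1.84-fold, adjusted p = 0.0368). That call was lost when any one of young mice 549, 94, 96 and 97 or of old mice 139, 601, 6121 and 6122 was left out, with an adjusted p of at most 0.0871, and was 0.0666 with mice 6121 and 6122 averaged.

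The only microRNA gene called at 2-fold among the 33 of the muscle and fibrosis list was *Mir208b*, and 7 of 478 microRNA genes on the array passed without the fold limit. *Mir208b* lies within an intron of *Myh7*, the slow myosin heavy chain, and is made from its transcript. The mature sequences of its family are shown to compare their seeds (bases 2 to 8, in capitals), the letters that pair with targets (RefSeq, GRCm38.p6, chr14:54975710-54975731 on the minus strand for miR-208b-3p, chr14:54949072-54949093 on the minus strand for miR-208a-3p of the cardiac *Myh6*, and chr2:155622893-155622913 on the plus strand for miR-499-5p of *Myh7b*).
mmu-miR-208b-3p: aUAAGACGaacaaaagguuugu
mmu-miR-208a-3p: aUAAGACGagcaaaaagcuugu
mmu-miR-499-5p: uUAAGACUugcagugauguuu
The first 2 share the seed and 19 of 22 bases, and miR-499-5p differs from them in the last base of the seed. The array reads the precursor and not the mature strand. *Mir208b* had levels of 4.91, 5.73, 6.23, 6.29 and 6.11 in the young and 5.32, 3.33, 4.52, 4.49 and 4.21 in the old H222P mice. Young mouse 549 lay below old mouse 139, so that the groups overlapped, and the change was -1.48 ± 0.29 (2.79-fold lower, adjusted p = 0.00327). *Mir208a* was at 1.82 to 2.88 and 1.99 to 2.46 (adjusted p = 0.782), and *Mir499* at 2.68 to 3.16 and 2.32 to 3.19 (adjusted p = 0.659). The host *Myh7* had 10.72, 10.94, 10.99, 11.03 and 10.99 in the young and 10.73, 9.51, 9.97, 10.64 and 10.40 in the old mice. Mice 549 and 139 were again the pair that overlapped, mouse 601 was again lowest, and the change was -0.69 ± 0.17 (adjusted p = 0.0181, 0.0547 without old mouse 609 and 0.0954 in the fit of the H222P arrays alone).

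Energy metabolism shifted by smaller amounts. All 17 measured genes of the tricarboxylic acid cycle, a list drawn up after the values were seen, had a change below 0 (median -0.35, and 0.03 in WT). Of these, 7 passed, 4 without young mouse 97, and 0 in the fit of the H222P arrays alone. *Fh1*, fumarase, was at 9.56 to 9.71 in the young and at 8.88 to 9.43 in the old mice (1.36-fold lower, adjusted p = 0.00543, 0.0523 in the fit of the H222P arrays alone). Of 54 genes of oxidative phosphorylation, 47 had a change below 0 (median -0.14), and 4 passed. This count was 2 without young mouse 549, 94 or 97, 8 without old mouse 6121 and 0 in the fit of the H222P arrays alone. *Uqcrfs1*, the Rieske protein of complex III, was 1.36-fold lower (adjusted p = 0.0167, 0.0963 in that fit). *Echs1*, an enzyme of fatty acid beta-oxidation, was at 8.31 to 8.65 in the young and at 6.93 to 8.02 in the old mice, 1.80-fold lower (adjusted p = 0.00126).

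*G0s2*, an inhibitor of the triglyceride lipase ATGL, had levels of 7.78, 7.61, 9.03, 8.20 and 7.33 in the young and 7.01, 6.83, 6.70, 6.37 and 5.97 in the old H222P mice. It was 2.66-fold lower (adjusted p = 0.00253), against a WT change of 0.81 ± 0.26, and the changes differed by -2.22 ± 0.37 (adjusted p = 0.00713). *Dgat2*, which makes triglycerides, was 1.62-fold lower (adjusted p = 0.0055), and *Hk2*, hexokinase of muscle, 1.48-fold (adjusted p = 0.00466). In the list of fatty acid use and lipid storage, 4 of 47 genes were lower (8 without old mouse 6121) and 0 higher. Glycolysis and glycogen had 4 of 32 lower and 1 higher (2 higher without young mouse 95). The higher one, *Hk1* (0.46, adjusted p = 0.00489), is not counted among the named genes below. *Ppp1r1a*, an inhibitor of protein phosphatase 1 under control of cAMP, went from 9.63, 9.99, 9.89, 9.96 and 9.67 to 8.93, 8.54, 8.19, 8.97 and 8.72, or 2.23-fold lower (adjusted p = 2.37e-05). *Tfrc*, the transferrin receptor for iron uptake, was 2.30-fold lower (adjusted p = 0.00593), at 8.25 to 8.67 in the young and 6.42 to 7.76 in the old mice. In polyamine metabolism both *Odc1*, the first enzyme of synthesis, and *Sat1*, the acetylase of breakdown, rose, 1.80-fold and 1.91-fold (adjusted p = 0.00131 and 0.000145). For *Sat1* the change exceeded that in WT by 1.07 ± 0.18 (adjusted p = 0.00659). *Nampt* and *Nmnat1*, enzymes of NAD synthesis, did not pass (-0.35 ± 0.12, adjusted p = 0.0948, and -0.25 ± 0.11, adjusted p = 0.2).

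Further fallers were 2 Kelch genes, a phosphatase subunit and 2 semaphorins. *Kbtbd13*, a Kelch protein mutated in nemaline myopathy, had levels of 5.20, 5.21, 5.88, 5.57 and 5.47 in the young and 4.06, 3.75, 4.39, 4.75 and 4.57 in the old H222P mice. It was 2.24-fold lower (adjusted p = 0.000286), and its change lay below that in WT (-1.57 ± 0.24, adjusted p = 0.00348). *Klhl33* was 2.19-fold lower (adjusted p = 0.00079), while *Klhl40*, which stabilises thin filament proteins and is mutated in nemaline myopathy too, rose 1.62-fold, from 7.63 to 8.05 to 8.36 to 8.89 (adjusted p = 0.00043). *Ppp1r27* was 2.13-fold lower (adjusted p = 0.00319), and *Ecrg4*, a secreted peptide precursor, 2.12-fold (adjusted p = 0.0126). The transmembrane guidance proteins *Sema6c* and *Sema6d* were 2.02-fold and 1.75-fold lower (adjusted p = 0.000264 and 0.000749), each with a change below that in WT (adjusted p = 0.0173 and 0.0139). *Nfil3*, a transcriptional repressor of the clock, rose 2.16-fold (adjusted p = 0.00759). *Egr1*, an immediate early gene, was at 7.20, 7.38, 6.10, 5.88 and 5.35 in the young and at 4.74 to 5.38 in the old mice. Its adjusted p of 0.0405 was lost when any one of young mice 549, 94 and 95 or of old mice 139, 601, 609 and 6122 was left out, and reached 0.123 without mouse 94. With mice 6121 and 6122 averaged it was 0.0504.

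Among 30 genes of the nuclear envelope, 3 were higher and 2 lower (median -0.01), *Lmna* included. *Plpp7*, a transmembrane protein of the muscle nuclear envelope, was at 6.40 to 6.62 in the young and at 5.08 to 5.93 in the old mice, 1.82-fold lower (adjusted p = 0.000718). *Nup210*, a nucleoporin that rises in myogenic differentiation, was 1.43-fold lower (adjusted p = 0.000609). Its paralog *Nup210l* rose from 6.16, 6.07, 5.86, 5.74 and 6.11 to 7.81, 6.98, 7.15, 7.03 and 7.31, 2.41-fold (adjusted p = 7.77e-05), while all WT arrays lay between 2.88 and 3.67.

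The genes that were also assayed by RT-qPCR or immunoblot formed a further list. Of its 26 members on the array, 14 were higher and 2 lower at 200 days. Of the 2 lower calls, 1 was lost when any one of young mice 549, 94 and 95 or of old mice 139, 601, 609 and 6122 was left out. The list was chosen on these samples and is not independent evidence. *Pfn1*, profilin 1, which feeds actin monomers to growing filaments, had levels of 8.92, 8.73, 8.60, 8.53 and 8.63 in the young and 9.27, 9.29, 9.27, 8.97 and 9.26 in the old mice (1.45-fold higher, adjusted p = 0.00211). *Wasl*, the activator N-WASP of actin branching, was 1.33-fold higher (adjusted p = 0.015, 0.0504 without young mouse 96 and 0.0596 in the fit of the H222P arrays alone). The cofilins *Cfl1* and *Cfl2*, which sever actin filaments, did not pass (0.02 ± 0.11 and -0.04 ± 0.09), and the sign of either small change depended on the normalization. Of 50 genes of actin dynamics, 2 were higher (4.0%, against 3.99% of all genes), and 1 without young mouse 96. *Prkaa1*, the alpha 1 subunit of AMPK, rose 1.45-fold (adjusted p = 0.00513) and *S100a4*, a calcium-binding protein of motile cells, 1.68-fold (adjusted p = 0.0107), the latter with a WT change of 0.62 ± 0.17. *Myl10* and *Pcp4* overlapped between the ages (adjusted p = 0.499 and 0.786), both below all WT arrays. The reference genes *Gapdh* and *Rplp0* did not pass, with changes of -0.10 ± 0.07 and -0.04 ± 0.18.

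**Figure D5:**
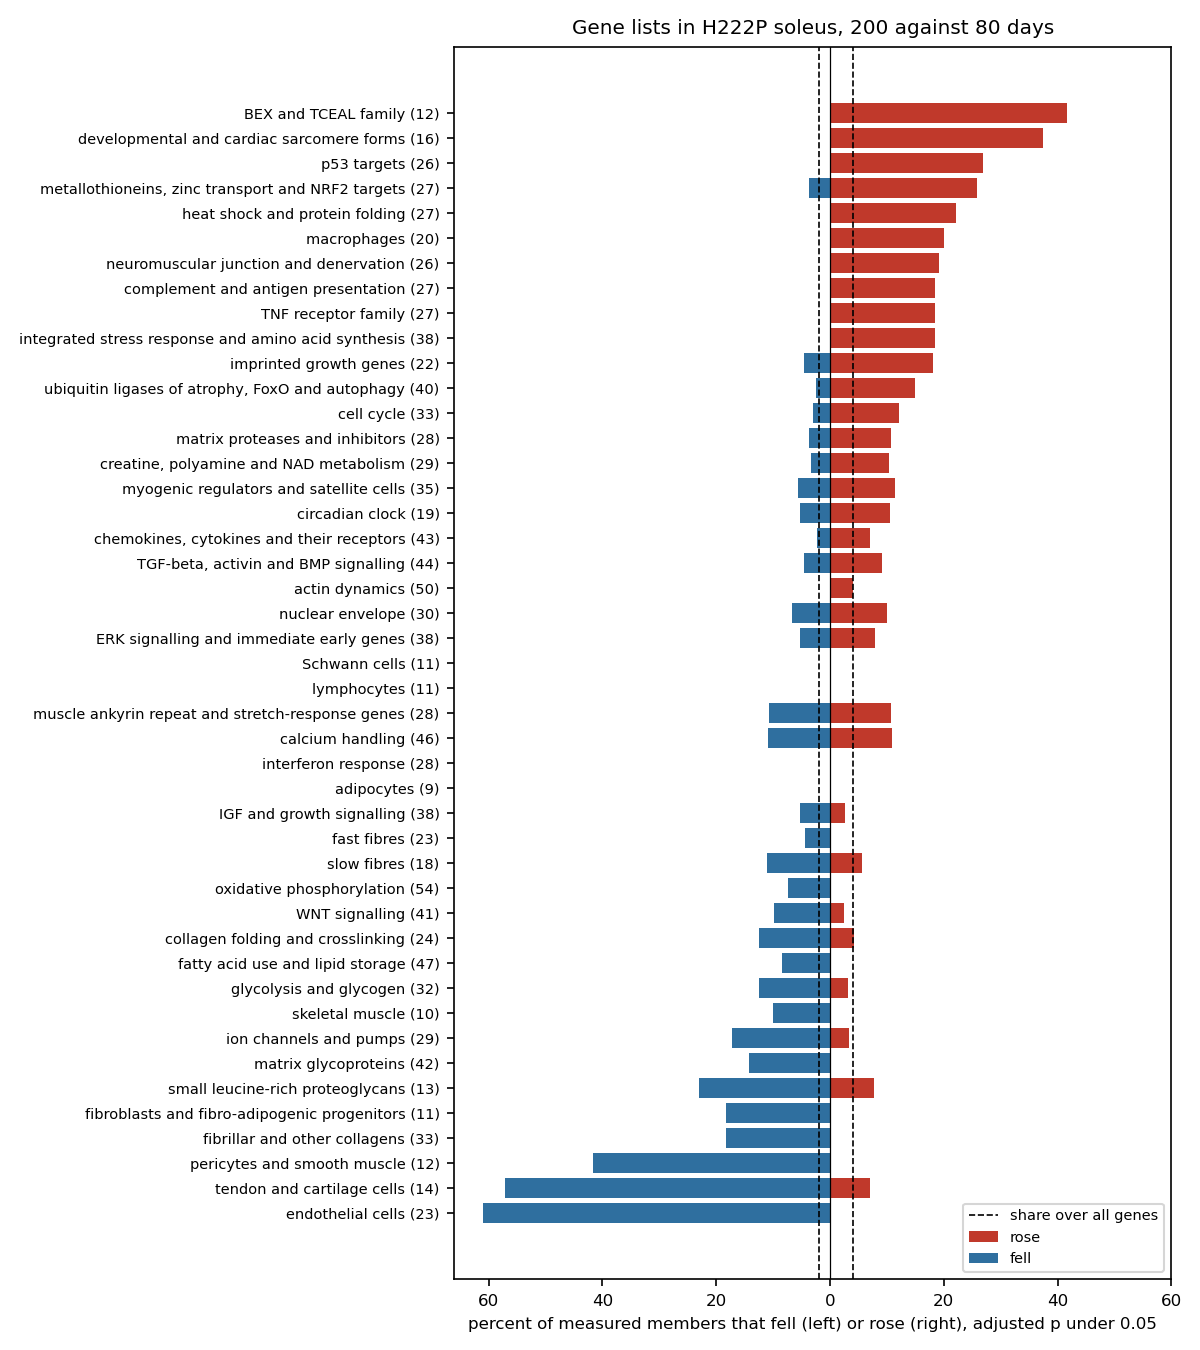
Percent of the measured members of each gene list with an adjusted p under 0.05 in H222P soleus, with those lower at 200 days to the left (blue bars) and those higher to the right (red bars), the number measured in brackets and dashed lines at the shares over all genes (2.0% lower and 3.99% higher). Endothelial markers reach 60.9% lower and the tendon and cartilage markers 57.1%, and the BEX and TCEAL family reaches 41.7% higher.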

How the data were processed

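RNA of the soleus was hybridized by the authors to GeneChip Mouse Gene 2.0 ST arrays, 5 for each of 4 groups of genotype and age (80 and 200 days). The authors deposited log2 signals per probe set after robust multichip analysis (background correction, quantile normalization and summary of probes), for which the submitters' processing notes name Partek. RMA signals compress differences of dim genes, no detection calls were given, while precision is set by how many arrays each group has. The genome build of the probe set annotation is not given in the sources used here.

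Of 35916 probe sets, 23521 have exactly 1 symbol, 1820 have several and 10575 have none. The first kind gave 22180 genes, and for the 1082 with several probe sets the one brightest on average over the 20 arrays was kept. Group means were fitted for every probe set over all 20 arrays by lmFit and eBayes (limma 3.58.1 under R 4.3.3), with contrasts for age in H222P, age in WT and their interaction. P was adjusted by the Benjamini-Hochberg procedure over all 35916 probe sets, from which the gene rows were then taken. Every adjusted p in the text comes from limma, two-sided. As in the study's methods, genes were called when they changed by 2-fold or more and their adjusted p was under 0.05, while "passed", "higher", "lower", "rose" and "fell" refer to the adjusted p alone. Errors after ± are standard errors of the fit. In the main Results, the interaction is given beside a gene only where it passed with every alternative tried, unless its failure is stated. The section of flagged results lists all named genes that passed it in the main fit, also those that failed with some alternatives. The fit was tested on simulated data.

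Named are the 20 largest risers and 20 largest fallers among called genes without overlap between the ages, up to 6 passing and 2 other members of each list, and genes of the study's RT-qPCR and immunoblots. Gene models without a product name were counted only. *Cyfip2*, *Hey1*, *Mir208a* and *Mir499* were added after their values were seen. So were *Pkp2*, *Krt18*, *Stmn4*, *Kif5c*, *Kif3a*, *Tuba8*, *Sesn3*, *Cav1*, *Cav2*, *Cavin2*, *Gucy1b1* and *Ndufa4l2*, among others. The members and lists were chosen with earlier results of these data known. The lists of the tricarboxylic acid cycle, hypoxia, desmosome, kinesins, stathmins, clade B serpins, caveolins and Kelch genes were chosen after the values were seen. Alternatives were the H222P arrays alone, centred or quantile-normalized arrays, dim probe sets left out, eBayes with trend and robust settings, array weights, mice 6121 and 6122 averaged, the mean over a gene's probe sets, another fold limit, and each array left out. Promoter and microRNA sequences are RefSeq's (GRCm38.p6), with a promoter row for 16990 of the 22180 genes and 136 of the 173 named ones, and a mature sequence for 426 of 478 microRNA genes. Motifs were searched in the 250 bases before a start on both strands.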

Additional observations from a re-analysis of the deposited data

Results flagged for a closer look

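In groups of 5, an array was taken to stand apart when its gap to the nearest other array exceeded 0.71 of the group's range, which chance does in about 1 of 20 groups. Of 346 groups tested for single named genes, 20 had such an array, where 17.3 are expected. Young mouse 549 was the highest young array for *Klk1* (share of the range 0.754), *Myl4* (0.791), *Myh8* (0.778), *Stmn4* (0.816), *Mt2* (0.720) and *Mmp23* (0.736), and the lowest for *Myh7* (0.714) and *Tead1* (0.723), in each case on the side of the old mice. Young mouse 94 was highest for *Armh4* (0.712) and lowest for *Dsp* (0.862). Young mouse 95 was highest for *Slc38a2* (0.729) and *Cav2* (0.842) and lowest for *Thbs2* (0.880). Among the old mice, 139 was highest for *Ppp1r15a* (0.864) and *Sesn3* (0.743) and lowest for *Mcm6* (0.771), and 601 was lowest for *Smad3* (0.760) and highest for *Klhl40* (0.743). Mouse 6122 was lowest for *H2-Aa* (0.750), and mouse 6121 lowest for *Pfn1* (0.923).

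Of 20 groups tested for the mean level of a cell type's markers, 6 had an array that stood apart, where 1.0 is expected. Young mouse 549 was lowest for skeletal muscle markers (0.724), and old mouse 601 lowest for endothelial markers (0.818). Schwann cell markers were highest in young mouse 96 (0.887) and old mouse 609 (0.932), adipocyte markers in old mouse 609 (0.766), and lymphocyte markers were lowest in old mouse 6121 (0.761). Without mouse 549, 142 genes were called at 2-fold in place of 116, and without mouse 601, 103.

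The change with age differed between H222P and WT soleus (interaction, limma, adjusted p under 0.05) for 68 of the named genes, and 39 of these passed in all alternatives that gave a value. The differences below are the H222P change minus the WT change on the log2 scale. Among the large risers they were 2.73 for *Ankrd1*, 2.42 for *Fam107a*, 2.17 for *Fam171b*, 2.12 for *Ccdc110*, 1.85 for *Klk1*, 1.69 for *Psca*, 1.48 for *Tnfrsf23*, 1.43 for *Armh4*, 1.04 for *Gdf11* and 1.0 for *Gbp10*. In the sarcomere, myogenic and junction lists they were 1.75 for *Myl4*, 1.59 for *Myh8*, 1.30 for *Tnnt2*, 0.98 for *Nppb*, 1.11 for *Myog*, 1.79 for *Mcm6*, 0.91 for *Runx1* and 0.84 for *Chrnb1*. Growth, cytoskeletal and envelope genes had 1.21 for *Peg3*, 0.93 for *Igf2*, 1.26 for *Bex1*, 1.49 for *Stmn4*, 1.18 for *Kif5c*, 0.81 for *Kif3a*, -0.62 for *Tuba8*, 0.54 for *Pdlim5*, -0.69 for *Fhl3*, 1.37 for *Nup210l* and 1.16 for *Serpinb7*.

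Stress genes had differences of 2.56 for *Mt2*, 1.53 for *Mt1*, 2.21 for *Ddit4*, 1.56 for *Slc7a5*, 1.14 for *Slc38a2*, 1.66 for *Trp53inp1*, 0.77 for *Sesn1*, 0.81 for *Sesn3*, 0.81 for *Hspb8*, 1.07 for *Sat1* and 1.51 for *Nfil3*. Immune genes had 1.53 for *Ccl8*, 0.78 for *Ccl17*, 1.40 for *H2-Ab1*, 0.97 for *H2-Eb1*, 0.84 for *Cd163* and 0.49 for *Edar*. Matrix genes had -1.0 for *Kera*, -1.78 for *Chad*, -0.94 for *Thbs2*, 1.10 for *Adamts20* and 0.96 for *Mmp23*. Vascular genes had -2.43 for *Bcl6b*, -1.44 for *Kdr*, -1.30 for *Myct1*, -0.95 for *Egfl7*, -0.85 for *Emcn*, -0.72 for *Vegfa*, -0.74 for *Gucy1b1*, -0.60 for *Cav2*, -0.92 for *Ndufa4l2* and -1.09 for *Bhlhe40*. Among the remaining fallers they were -0.86 for *Clcn1*, -0.70 for *Kcnj2*, -2.22 for *G0s2*, -0.89 for *Ppp1r1a*, -1.57 for *Kbtbd13*, -1.09 for *Sema6c* and -1.01 for *Sema6d*. The least stable of these calls, *Edar*, passed in 6 of the alternatives. *Tnfrsf23* passed in 8 of 27, *Pdlim5* in 9, *Kera*, *Gbp10* and *Tuba8* in 10, and *Myct1*, *Cav2* and *Cd163* in 11.

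Outside the 22180 genes, 79 probe sets passed the same call between the ages in H222P soleus, 67 higher and 12 lower, and 0 in WT. They have several symbols, no symbol, or belong to a gene read from another probe set, and entered no comparison above.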

How the results depend on the processing

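Genes called at 2-fold numbered 116, and 100 to 133 with other scalings, filters or models, 103 to 143 with 1 array left out, and 1329 with no fold limit. Genes whose change differed between the genotypes numbered 194, and 178 to 284 with other scalings, filters or models. They numbered 114 to 236 with 1 array left out, and 86 with a limit of 2-fold. With the 10 H222P arrays alone, 746 genes passed the adjusted p in place of 1329. No scaling moved the median change of all genes by over 0.1. Of the 159 named genes that passed, 142 did so with every alternative and 17 lost the call in at least 1, while 4 of the 14 others gained it in at least 1, *Nampt* only with quantile normalization. Directions turned only for small changes that did not pass. The change of *Cfl1* was -0.0063 with quantile normalization and -0.0243 to 0.1105 with 1 H222P array left out. That of *Cfl2* was 0.0021 with quantile normalization and -0.0818 to 0.0387 with 1 array left out. For *Pcp4* it was 0.0002 with mice 6121 and 6122 averaged and -0.3244 to 0.0499 with 1 array left out. *Rplp0* had 0.0647 with array weights, 0.0213 with the mean over probe sets and -0.1536 to 0.1622 with 1 array left out. The cause was not tested. No paired analysis was possible because the numbers in the array titles differ between the groups. With no detection calls, signal over background could not be judged for dim genes such as *Serpinb7*, *Mir208a* and *Mir499*.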

Other observations

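*Cyfip2*, a subunit of the WAVE complex that drives actin branching, rose with age in H222P soleus, with a WT change of like size that did not pass. Its levels were 5.14, 5.17, 5.02, 5.49 and 5.52 in the young and 6.66, 5.95, 6.43, 6.86 and 6.51 in the old H222P mice, without overlap (1.21 ± 0.22, adjusted p = 0.00187). In WT soleus they ran from 4.64 to 5.77 at 80 days and from 6.29 to 7.38 at 200 days (1.25 ± 0.22, adjusted p = 0.0665). The gene was picked after its values were seen. Its interaction was -0.04 ± 0.31 (adjusted p = 0.982), so a difference between genotypes was not detectable with 5 arrays per group.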
